A study of Mus musculus with 16 samples.

Results

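The 10 genes described here encode the main glucose transporter and 9 enzymes of glycolysis and lactate production: Slc2a1, Hk2, Gpi1, Pfkl, Aldoa, Tpi1, Pgk1, Eno1, Pkm and Ldha. They were taken by symbol, and all 10 were found among the 12321 genes of the table and passed the filter on low values. Their RNA was measured in LKR10, a cell line from a mouse lung adenocarcinoma, infected with pLKO lentivirus that carried a short hairpin RNA (shRNA) either against Ankrd35 or against GFP, the control. All cells were kept under 4 µg/ml puromycin for 48 h, and RNA was taken 96 h later. The 4 groups, with 4 libraries each, were 3D shAnkrd35, 3D shGFP, 2D shAnkrd35 and 2D shGFP, where 3D means growth in 0.5% methylcellulose with ultra-low attachment and 2D means a monolayer, with 10% serum in DMEM for 2D and complete DMEM for 3D. The design set the hairpins against each other in each growth type, the growth types against each other with each hairpin, and the hairpin effects in 3D and 2D against each other.

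Glycolysis splits glucose into pyruvate in the cytosol and yields ATP without oxygen. Glucose enters through carriers such as GLUT1, hexokinase traps it as glucose 6-phosphate, a chain of enzymes carries the carbon to pyruvate, and lactate dehydrogenase reduces pyruvate to lactate so that the cofactor NAD+ is renewed. Many tumour cells run this route at a high rate, and hypoxia-inducible factors and MYC are known to raise transcription of many of its genes.

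Depth ranged from 13.82 M to 28.72 M reads assigned to genes per library. The 10 genes held from 1059 reads (Slc2a1 in the shallowest library) to 115863 reads each. Several glycolytic enzymes have processed pseudogenes in the mouse, and how reads that fit more than 1 place were counted is not given in the labels, so levels may include or lack such reads. Nothing in the labels ties the replicates to separate cultures, and the spread behind each p-value may therefore be technical. In such bulk RNA, fewer cells that express a gene and less of its RNA per cell cannot be told apart. The libraries held 12, 11, 9 and 9 reads of Ankrd35 in 3D shAnkrd35 against 14, 17, 16 and 16 in 3D shGFP, while 2D shAnkrd35 had 2, 6, 7 and 1 against 2, 3, 6 and 7 in 2D shGFP. At this depth Ankrd35 did not settle the hairpin labels, so each hairpin direction below rests on them. Replicate 1 of 2D shAnkrd35 stood apart, with 2109 CPM (counts per 1000000 reads of the effective library size) of the RNA Gm23935, where replicates 2 to 4 had 239 to 313 CPM. Of 9 epithelial markers 6 were in the table, with sums of 6601 to 7178 CPM in 3D shAnkrd35 against 5995 to 6176 CPM in 3D shGFP, while 2D shAnkrd35 had 7028 to 8555 CPM against 5262 to 5761 CPM in 2D shGFP. These sums, mostly Krt8 and Krt18, were thus higher without overlap with the label shAnkrd35 in both growth types, as the summed glycolysis genes were. Of the 6 markers, 4 were called higher and 1 lower in each growth type, where 29.7% of all genes were called in 3D and 57.9% in 2D. Epcam had 1.04 to 1.40 CPM in 3D shAnkrd35 against 2.38 to 2.78 CPM in 3D shGFP. Cdh1 had 414 to 479 CPM in 2D shAnkrd35 against 483 to 528 CPM in 2D shGFP. Of 9 lung lineage markers Foxa1 and Foxa2 were in the table and the defining Nkx2-1 and Sftpc were not. Of 10 leukocyte markers 3 were in the table, without Ptprc, and these summed to 129.7 to 152.4 CPM in 3D shAnkrd35, 116.0 to 123.7 CPM in 3D shGFP, 79.5 to 87.9 CPM in 2D shAnkrd35 and 41.4 to 42.7 CPM in 2D shGFP. They were Cd68, Lyz2 and Cd14, and Cd14 made up most of each sum. It had 126.9 to 135.8 CPM in 3D shAnkrd35 and 37.4 to 39.1 CPM in 2D shGFP, while Cd68 and Lyz2 had at most 8.83 CPM in any library. Of 8 fibroblast markers 5 were in the table, with sums of 12.6 to 48.2 CPM in 3D shAnkrd35, 25.3 to 29.0 CPM in 3D shGFP, 20.8 to 21.9 CPM in 2D shAnkrd35 and 31.8 to 34.6 CPM in 2D shGFP. The part of all these markers in the results below was not tested.

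Libraries also differed in how their values followed the GC content of genes. Against each gene's mean, a library's log2 values changed per 10 percentage points of GC by -0.28 to -0.13 in 3D shAnkrd35, by -0.30 to -0.24 in 3D shGFP, by 0.26 to 0.55 in 2D shAnkrd35 and by -0.10 to 0.30 in 2D shGFP. Within 2D shGFP, replicate 1 had 0.30, while replicates 2, 3 and 4 had -0.10, 0.12 and -0.01. The glycolysis genes had a median GC content of 53.8% and a median transcript length of 2229.5 bases, and the genes tested had medians of 50% and 3078 bases. Fold changes are therefore also given after each library's GC and length trend was removed, and corrected below means only this. Since the slopes differed between groups, the removal may also take out real differences between them. Whether the slopes are technical was not tested.

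The sequences upstream of 3 of the genes are shown as examples. Slc2a1 was the member that fell with the hairpin against Ankrd35 in both growth types. Hk2 was the member whose hairpin effect differed most between 3D and 2D. Ldha rose in both, as did Gpi1, Pfkl, Aldoa and Tpi1, whose sequences are not shown. Each sequence is the 250 bases before a RefSeq transcription start on the gene's own strand (GRCm38.p6). The places are chr4:119108495-119108744 on the plus strand for Slc2a1, chr6:82774455-82774704 on the minus strand for Hk2 and chr7:46845554-46845803 on the plus strand for the first of the Ldha starts. Capitals mark ACGTG or GCGTG on either strand, the core that hypoxia-inducible factors recognise. The second Ldha start had 0 ACGTG and 1 GCGTG, and Gpi1 and Tpi1 had neither.
Slc2a1: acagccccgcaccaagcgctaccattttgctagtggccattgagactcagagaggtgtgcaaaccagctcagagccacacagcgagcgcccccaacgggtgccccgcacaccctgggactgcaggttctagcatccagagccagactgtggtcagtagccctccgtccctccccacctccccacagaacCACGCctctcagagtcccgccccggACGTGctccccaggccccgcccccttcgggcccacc
Hk2: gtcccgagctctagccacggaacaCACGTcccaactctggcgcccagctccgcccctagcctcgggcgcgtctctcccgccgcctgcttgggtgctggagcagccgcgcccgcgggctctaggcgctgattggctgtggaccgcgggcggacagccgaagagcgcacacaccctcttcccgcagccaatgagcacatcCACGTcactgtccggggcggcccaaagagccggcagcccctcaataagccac
Ldha: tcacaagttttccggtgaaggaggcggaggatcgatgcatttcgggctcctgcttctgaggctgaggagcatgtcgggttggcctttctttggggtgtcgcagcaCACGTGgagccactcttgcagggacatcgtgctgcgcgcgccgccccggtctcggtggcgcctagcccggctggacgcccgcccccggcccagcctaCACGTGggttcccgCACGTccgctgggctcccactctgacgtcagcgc

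Across all starts of a gene, ACGTG was present upstream of 6 of the 10 genes (Slc2a1, Hk2, Aldoa, Pgk1, Pkm and Ldha), against 25.2% of the 9308 tested genes with such a sequence and 16.6% of all 32851 windows of that length. GCGTG was present in 4 (Slc2a1, Pfkl, Eno1 and Ldha), against 51.0% of tested genes and 28.2% of windows. The E-box CACGTG, the letters MYC binds and which contain ACGTG, was present in Ldha alone among the 10, against 10.1% of tested genes and 6.0% of windows. The GC box GGGCGG was present in all but Pfkl, 9 of 10, against 65.2% of tested genes and 32.7% of windows. All were searched on both strands, and a match describes these letters, not a bound site.

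The genes covered a wide range of levels. Per kilobase of transcript and over all 16 libraries, the mean level was highest for Pkm, at 1514 CPM per kb, then Ldha at 599 CPM per kb, Eno1 at 510 CPM per kb, Aldoa at 435 CPM per kb and Tpi1 at 425 CPM per kb. Pgk1 followed at 243.5 CPM per kb, Gpi1 at 206 CPM per kb and Pfkl at 79.0 CPM per kb. The transporter Slc2a1, at 29.8 CPM per kb, and Hk2, at 17.8 CPM per kb, which act at the entry of the pathway, were the least abundant. In 3D, all 10 together took 0.934% ± 0.033 of reads with shAnkrd35 and 0.835% ± 0.011 with shGFP (SD, n = 4). The shares in 2D were 0.941% ± 0.040 with shAnkrd35 and 0.772% ± 0.035 with shGFP. The shAnkrd35 libraries lay above the shGFP libraries of the same growth type in every case, at 0.901% to 0.975% against 0.826% to 0.852% in 3D and at 0.896% to 0.978% against 0.736% to 0.817% in 2D.

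**Figure D1:**
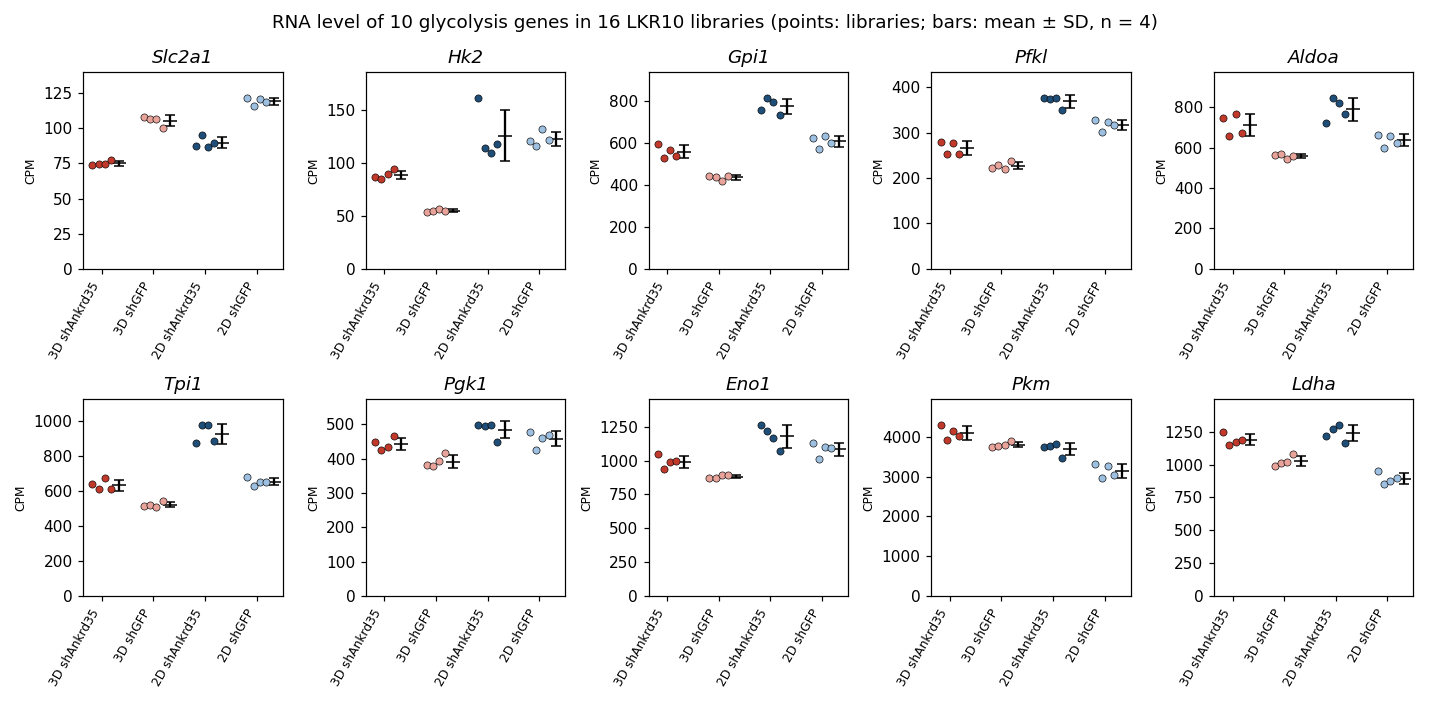
Level of each of the 10 genes in CPM (linear axis from 0) in the 4 libraries of each group, as points, with the mean ± SD (n = 4) beside them. Slc2a1 sits lower in both shAnkrd35 groups than in the shGFP group of the same growth type, and Hk2 is lowest in 3D shGFP, at 54.0 to 57.0 CPM.

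Under 3D growth, 8 glycolytic enzymes were higher and the glucose transporter was lower in libraries labelled shAnkrd35 than in shGFP libraries. Of the 10 genes 8 rose and 1 fell, where 29.7% of all genes tested were called, 15% higher and 14.6% lower. Their median log2 fold change was 0.22, against 0.00 over all genes. The 4 libraries of each group did not overlap for any of the 10, with 9 higher and 1 lower in shAnkrd35, where 18.8% of all genes were without overlap higher and 19.4% lower.

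Under 2D growth, 6 enzymes were higher with the label shAnkrd35, led by Tpi1 and Ldha, and the transporter was again lower. Of the 10 genes 6 rose and 1 fell, where 57.9% of all genes were called, 29% higher and 28.8% lower. All shAnkrd35 libraries lay above all shGFP libraries for 6 genes and below them for 1, which was so for 22.3% and 17.5% of all genes. The median log2 fold change was 0.22, against 0.01 over all genes. After the GC and length trend was removed, 3 of the 10 rose (Tpi1, Gpi1 and Ldha) and 1 fell in 2D, with a median of 0.05, where 25.8% of all genes rose and 30% fell. In 3D the same step left 7 higher and 1 lower, with a median of 0.22, where 16.8% and 17.7% of all genes were so.

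**Figure D2:**
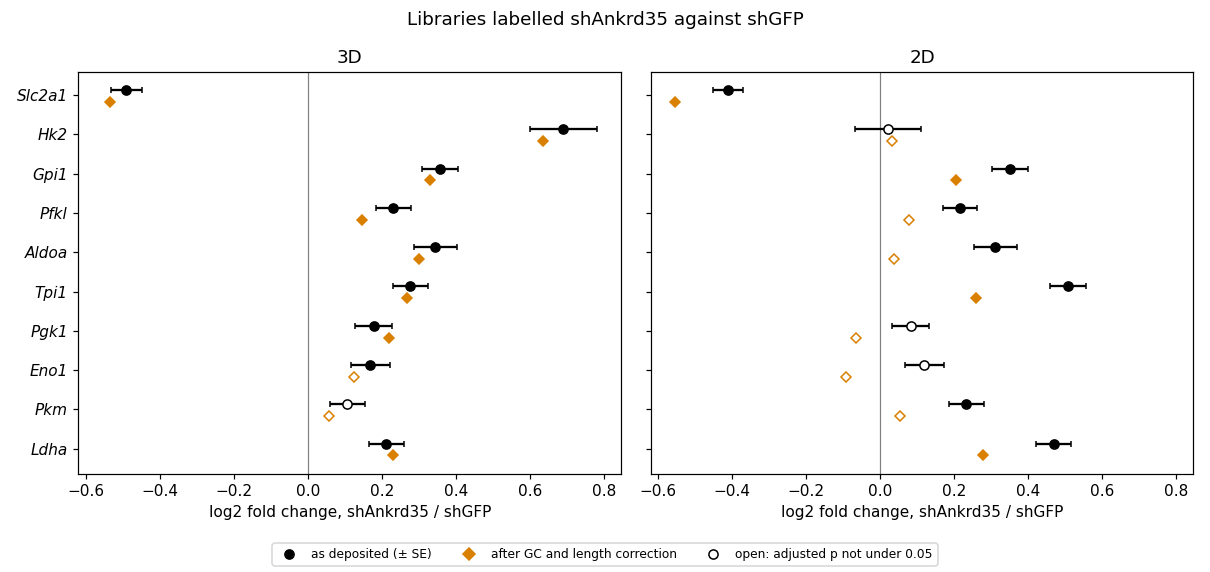
Log2 fold change of libraries labelled shAnkrd35 against shGFP for the 10 genes, in 3D (left) and 2D (right), as deposited (black circles, ± SE from limma) and after removal of the GC and length trend (orange diamonds), with open symbols where the adjusted p was not under 0.05. In 3D the 2 settings lie close together, while in 2D the corrected values of Pfkl, Aldoa and Pkm are near 0 and that of Slc2a1 is at -0.55.

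Slc2a1 (ENSMUSG00000028645.11, chromosome 4, 119108711 to 119137983, plus strand, mm10) encodes GLUT1, the facilitative carrier that brings glucose across the plasma membrane. It had 73.8, 74.2, 74.3 and 77.2 CPM in 3D shAnkrd35, against 108.2, 106.7, 106.5 and 99.7 CPM in 3D shGFP. Its 2D levels were 87.2, 95.2, 86.6 and 89.3 CPM in shAnkrd35, against 121.7, 115.7, 120.4 and 118.7 CPM in shGFP. The order was 3D shAnkrd35, 2D shAnkrd35, 3D shGFP and 2D shGFP from low to high, and no neighbours in it overlapped. The log2 fold change with the hairpin was -0.49 ± 0.04 in 3D (SE, limma adjusted p = 1.36e-07) and -0.41 ± 0.04 in 2D (4.27e-07). Among the fold changes of all genes tested, these stood at percentile 4.5 in 3D and 17.8 in 2D. After the GC and length trend was removed these values were -0.53 and -0.55. It fell with 3D growth too, by 0.26 with shAnkrd35 and by 0.18 with shGFP on the log2 scale, but those became -0.004 and -0.023 after that removal (adjusted p = 0.943 and 0.64).

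Hk2 (ENSMUSG00000000628.10, chromosome 6, 82725025 to 82774454, minus strand) encodes hexokinase 2, an isozyme that can sit on mitochondria and phosphorylates incoming glucose. It had 86.7, 85.0, 90.2 and 94.2 CPM in 3D shAnkrd35, against 54.0, 55.0, 57.0 and 54.4 CPM in 3D shGFP. With 2D growth it had 162.2, 114.6, 109.6 and 118.2 CPM in shAnkrd35, against 121.4, 115.9, 132.1 and 122.3 CPM in shGFP. All 3D shGFP libraries were lowest and all 3D shAnkrd35 libraries next, below both 2D groups, which overlapped. Replicate 1 of 2D shAnkrd35, the library that stood apart, was the high one.

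Hk2 rose with the label shAnkrd35 in 3D, by 0.69 ± 0.09 on the log2 scale (SE, limma adjusted p = 1.94e-05), and gave 0.02 ± 0.09 in 2D (0.854). The difference of the effects, 3D minus 2D, was 0.67 ± 0.13 (adjusted p = 0.000941). Without replicate 1 of 2D shAnkrd35 the 2D effect was -0.11 ± 0.05 (0.0703) and the difference 0.80 ± 0.07 (2.12e-07). In 3D, Hk2 stood at 0.449 of its 2D level with shGFP (-1.15 ± 0.09, adjusted p = 8.29e-09) and at 0.714 of it with shAnkrd35 (-0.49 ± 0.09, 0.00014). Among all genes tested the fold changes stood at percentile 2.8 with shGFP and 14.1 with shAnkrd35. The corrected difference of hairpin effects was 0.60.

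Gpi1 (ENSMUSG00000036427.5, chromosome 7, 34201330 to 34230336, minus strand) encodes glucose 6-phosphate isomerase, which turns glucose 6-phosphate into fructose 6-phosphate. It had 596.2, 529.9, 568.0 and 536.9 CPM in 3D shAnkrd35, against 442.3, 436.3, 419.2 and 444.0 CPM in 3D shGFP. The 2D libraries had 753.8, 815.3, 792.6 and 732.9 CPM in shAnkrd35, against 624.3, 571.1, 632.3 and 597.8 CPM in shGFP. The hairpin groups were apart in each growth type, while 3D shAnkrd35 overlapped 2D shGFP. The log2 fold changes with the hairpin were 0.36 ± 0.05 in 3D (SE, limma adjusted p = 3.26e-05) and 0.35 ± 0.05 in 2D (1.64e-05). Gpi1 was lower in 3D than in 2D by a similar size with both hairpins, at -0.47 with shAnkrd35 and -0.48 with shGFP. After removal of the GC and length trend the hairpin values were 0.33 in 3D and 0.21 in 2D, and those of growth were -0.22 with shAnkrd35 and -0.35 with shGFP, all of them still called.

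Pfkl (ENSMUSG00000020277.10, chromosome 10, 77986947 to 78010083, minus strand) encodes the liver-type subunit of phosphofructokinase, which catalyses the committed step of glycolysis. Per library it had 280.2, 253.5, 277.4 and 252.8 CPM in 3D shAnkrd35, against 222.4, 227.8, 219.0 and 236.8 CPM in 3D shGFP. Values in 2D were 375.9, 372.7, 376.9 and 348.5 CPM in shAnkrd35, against 327.0, 301.6, 323.6 and 316.9 CPM in shGFP. It averaged 266.0 ± 14.9 CPM in 3D shAnkrd35 against 226.5 ± 7.8 CPM in 3D shGFP, while 2D shAnkrd35 had 368.5 ± 13.5 CPM against 317.3 ± 11.3 CPM in 2D shGFP (SD, n = 4). The groups came in the order 3D shGFP, 3D shAnkrd35, 2D shGFP and 2D shAnkrd35 from low to high, with no overlap between neighbours. The hairpin log2 fold changes were 0.23 ± 0.05 in 3D (SE, limma adjusted p = 0.00114) and 0.22 ± 0.05 in 2D (0.000913), which became 0.145 (0.00829) and 0.08 (0.102) after the GC and length trend was removed. Those of growth were -0.47 with shAnkrd35 and -0.49 with shGFP, and -0.195 and -0.26 after removal of the trend.

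Aldoa (ENSMUSG00000030695.16, chromosome 7, 126795234 to 126800751, minus strand) encodes aldolase A, which cleaves fructose 1,6-bisphosphate into a pair of triose phosphates. A neighbouring gene model carries the same symbol in GENCODE M21, and the table has 1 row for the symbol. It had 746.8, 656.0, 766.0 and 670.6 CPM in 3D shAnkrd35, against 561.9, 567.5, 545.1 and 557.7 CPM in 3D shGFP. In 2D it had 723.3, 847.3, 822.9 and 765.7 CPM in shAnkrd35, against 660.9, 598.9, 659.3 and 624.0 CPM in shGFP. Both shAnkrd35 groups overlapped each other. The hairpin log2 fold change was 0.34 ± 0.06 in 3D (SE, limma adjusted p = 0.000256) and 0.31 ± 0.06 in 2D (0.000289). With the GC and length trend removed, the 3D value was 0.30 and the 2D value 0.04 (adjusted p = 0.426), and the difference of effects passed the test (0.26, 0.00111) where it had not before (0.03, 0.784).

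Tpi1 (ENSMUSG00000023456.15, chromosome 6, 124810586 to 124814296, minus strand) encodes triosephosphate isomerase, which interconverts the triose phosphates. It had 637.9, 609.2, 672.4 and 609.7 CPM in 3D shAnkrd35, against 517.2, 517.7, 509.3 and 542.5 CPM in 3D shGFP. Its 2D levels were 873.3, 976.8, 978.1 and 884.7 CPM in shAnkrd35, against 677.7, 629.5, 651.8 and 648.9 CPM in shGFP. All 2D shAnkrd35 libraries lay above every other library. The hairpin log2 fold change was 0.28 ± 0.05 in 3D (SE, limma adjusted p = 0.000318) and 0.51 ± 0.05 in 2D (2.33e-07), and the difference, 3D minus 2D, was -0.23 ± 0.07 (0.0157). After removal of the GC and length trend the effects were 0.27 in 3D and 0.26 in 2D, and the difference was 0.01 (adjusted p = 0.923).

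Pgk1 (ENSMUSG00000062070.12, chromosome X, 106187100 to 106203699, plus strand) encodes phosphoglycerate kinase 1, the first enzyme of the pathway that yields ATP. Its libraries had 449.3, 424.6, 433.8 and 464.9 CPM in 3D shAnkrd35, against 380.3, 377.7, 392.1 and 416.8 CPM in 3D shGFP. Values in 2D were 497.0, 496.4, 498.7 and 447.6 CPM in shAnkrd35, against 476.4, 426.8, 459.0 and 468.2 CPM in shGFP. It averaged 443.2 ± 17.7 CPM in 3D shAnkrd35 against 391.8 ± 17.8 CPM in 3D shGFP, while 2D shAnkrd35 had 484.9 ± 24.9 CPM against 457.6 ± 21.7 CPM in 2D shGFP (SD, n = 4). It rose with the hairpin in 3D (log2 fold change 0.18 ± 0.05, SE, limma adjusted p = 0.0124), and 2D gave 0.08 ± 0.05 (0.162). The 3D groups did not overlap and the 2D groups did. In 2D shAnkrd35, 3 libraries had 496.4 to 498.7 CPM and replicate 4 had 447.6 CPM. The 2D value passed the test without that replicate (0.12, limma adjusted p = 0.0467) and under quantile normalization (0.15, 0.00748), and turned to -0.07 (0.277) after removal of the GC and length trend.

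Eno1 (ENSMUSG00000063524.13, chromosome 4, 150236721 to 150248879, plus strand) encodes alpha-enolase, which forms phosphoenolpyruvate. Single libraries had 1047, 939.5, 988.0 and 995.4 CPM in 3D shAnkrd35, against 870.8, 871.8, 893.1 and 893.9 CPM in 3D shGFP. Values in 2D were 1264, 1216, 1169 and 1069 CPM in shAnkrd35, against 1131, 1015, 1101 and 1090 CPM in shGFP. It averaged 992.5 ± 44.0 CPM in 3D shAnkrd35 against 882.4 ± 12.8 CPM in 3D shGFP, while 2D shAnkrd35 had 1179 ± 83.3 CPM against 1084 ± 49.4 CPM in 2D shGFP (SD, n = 4). The hairpin log2 fold change was 0.17 ± 0.05 in 3D (SE, limma adjusted p = 0.0204) and 0.12 ± 0.05 in 2D (0.0564). The 3D call was lost after removal of the GC and length trend (0.125, adjusted p = 0.0981), without replicate 1 of 3D shAnkrd35 (0.14, 0.073) and without replicate 1 (0.16, 0.0523) or 2 (0.16, 0.0507) of 3D shGFP. The 2D effect passed without replicate 4 of 2D shAnkrd35 (0.17, 0.00851) or replicate 1 of 2D shGFP (0.14, 0.0404) and with libraries centred on the median gene (0.16, 0.0388), and turned to -0.09 (0.172) after removal of the GC and length trend. Its retrogene Eno1b has a near-identical sequence, and reads could have been split between them, so the level of each is uncertain. Eno1b averaged 220.3 CPM in 3D shAnkrd35 against 182.5 CPM in 3D shGFP, while 2D shAnkrd35 had 272.2 CPM against 226.2 CPM in 2D shGFP.

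Pkm (ENSMUSG00000032294.17, chromosome 9, 59656368 to 59679375, plus strand) encodes the muscle-type pyruvate kinase, made as M1 and M2 forms by alternative splicing, which a table of whole genes does not separate. It had 4297, 3913, 4135 and 4016 CPM in 3D shAnkrd35, against 3735, 3775, 3792 and 3894 CPM in 3D shGFP. With 2D growth it had 3748, 3761, 3806 and 3469 CPM in shAnkrd35, against 3326, 2966, 3262 and 3034 CPM in shGFP. The 2D shGFP libraries were below all others. The hairpin log2 fold change was 0.11 ± 0.05 in 3D (SE, limma adjusted p = 0.105) and 0.23 ± 0.05 in 2D (0.000564), with corrected values of 0.057 and 0.055. A fit on the 3D libraries alone called the 3D value (0.11, 0.0282). In contrast to the enzymes above, Pkm was higher in 3D than in 2D, by 0.15 ± 0.05 with shAnkrd35 (0.011) and 0.27 ± 0.05 with shGFP (7.89e-05), and by 0.44 with each after removal of the trend. With each library centred on the median gene the first was 0.05 (0.456).

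Ldha (ENSMUSG00000063229.15, chromosome 7, 46841475 to 46855627, plus strand) encodes the A subunit of lactate dehydrogenase. It had 1249, 1150, 1172 and 1185 CPM in 3D shAnkrd35, against 990, 1015, 1019 and 1082 CPM in 3D shGFP. The 2D libraries had 1217, 1270, 1302 and 1162 CPM in shAnkrd35, against 953, 852, 873 and 897 CPM in shGFP. Both shAnkrd35 groups overlapped each other and lay above both shGFP groups. The hairpin log2 fold change was 0.21 ± 0.05 in 3D (SE, limma adjusted p = 0.00289) and 0.47 ± 0.05 in 2D (5.73e-07), a difference of -0.26 ± 0.07 (0.00872). Once the GC and length trend was removed, the effects were 0.23 in 3D and 0.28 in 2D, and the difference was -0.05 (adjusted p = 0.537). In 3D against 2D it was higher with shGFP (0.20 ± 0.05, 0.00148) and gave -0.06 ± 0.05 (0.294) with shAnkrd35, which became 0.20 (0.000148) after that removal. Centring on the median gene ended the first call (0.125, adjusted p = 0.0841).

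Growth in methylcellulose went with less RNA of most of the genes between glucose entry and enolase, and with more of Pkm. In 3D against 2D with shAnkrd35, 8 of the 10 genes fell and 1 rose, where 70.4% of all genes were called, 36% lower and 34.4% higher. With shGFP, 8 fell and 2 rose (Pkm and Ldha), where 67.2% of all genes were called, 32.1% lower and 35.2% higher. The libraries did not overlap for 6 lower genes and 1 higher with shAnkrd35, where 29.3% and 29.9% of all genes were so, and for 8 lower and 2 higher with shGFP, where 31.6% and 33.3% were so. The median log2 fold change was -0.25 with shAnkrd35 and -0.26 with shGFP, against -0.02 and 0.03 over all genes. With shAnkrd35 the libraries of Aldoa, Pgk1 and Ldha overlapped between growth types. The call of Aldoa there (-0.15, limma adjusted p = 0.0262) was lost without replicate 2 or 3 of 2D shAnkrd35 or replicate 2 or 4 of 3D shAnkrd35 (0.0753 to 0.0986). That of Pgk1 (-0.13, 0.0291) was lost without replicate 1, 2 or 3 of 2D shAnkrd35 or replicate 2 or 3 of 3D shAnkrd35 (0.05 to 0.0881).

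These counts changed when the GC and length trend was removed. After that, 4 of the 10 genes were lower in 3D with shAnkrd35 (Hk2, Gpi1, Pfkl and Tpi1) and 3 higher (Pkm, Ldha and Aldoa), where 28.3% and 39.2% of all genes were so, and the median was 0.03, against 0.06 over all genes. With shGFP 6 were lower and 2 higher, where 30.2% and 37.6% of all genes were so, with a median of -0.17, against 0.05 over all genes. With shAnkrd35 the sign turned for Aldoa, Pgk1 and Eno1 after this step (0.195, 0.087 and 0.069) and also under quantile normalization (0.044, 0.013 and 0.072). Hk2, Gpi1, Pfkl and Tpi1 were lower and Pkm was higher in 3D with both hairpins and in both settings. The corrected log2 fold changes of Hk2 were -0.35 with shAnkrd35 and -0.95 with shGFP.

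**Figure D3:**
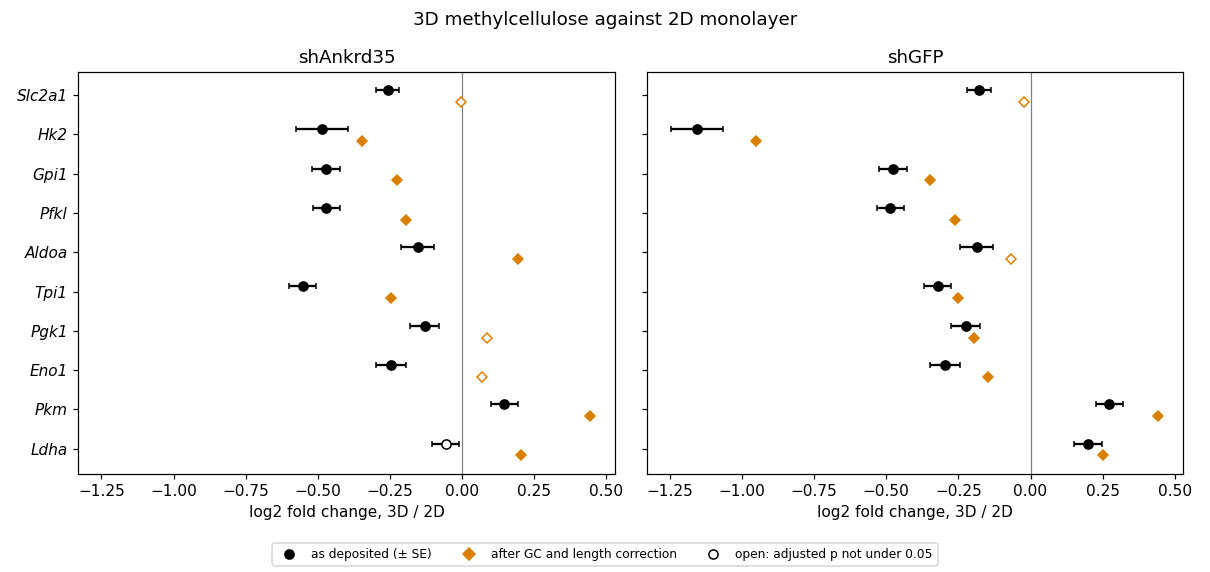
Log2 fold change of 3D against 2D for the 10 genes with shAnkrd35 (left) and shGFP (right), as deposited (black circles, ± SE from limma) and after removal of the GC and length trend (orange diamonds), with open symbols where the adjusted p was not under 0.05. Hk2 with shGFP is the farthest left at -1.15, Pkm is right of 0 in both panels, and the corrected values lie to the right of the deposited ones.

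Hairpin effects differed between 3D and 2D for 3 of the 10 genes (1 higher, 2 lower), where 35.8% of all genes differed, 17.1% higher and 18.6% lower. These were Hk2, Tpi1 and Ldha. After the trend was removed 4 were higher and 0 lower, where 18.6% and 16.1% of all genes were so, the 4 being Hk2, Aldoa, Pgk1 and Eno1. Hk2 passed in both settings.

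Hk1, the hexokinase found in most tissues, had 78.0 ± 3.2 CPM per kb in 3D shAnkrd35 against 64.8 ± 1.5 in 3D shGFP, while 2D shAnkrd35 had 71.4 ± 7.2 against 66.4 ± 3.6 in 2D shGFP (SD, n = 4). It was therefore more abundant per length than Hk2 in every group. Hk2 made up 17.1% ± 0.7 of hexokinase RNA per length (Hk1, Hk2 and Hkdc1) in 3D shAnkrd35 against 13.3% ± 0.3 in 3D shGFP, while 2D shAnkrd35 had 24.1% ± 1.9 against 25.1% ± 0.5 in 2D shGFP. In 3D against 2D, Hk1 gave 0.13 with shAnkrd35 (limma adjusted p = 0.059) and -0.03 with shGFP (0.636), and both were called higher after removal of the GC and length trend (0.38 and 0.20).

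Of the phosphofructokinase subunits, the platelet type Pfkp fell in 3D by 0.95 ± 0.04 on the log2 scale with shAnkrd35 (limma adjusted p = 8.24e-12) and by 1.19 ± 0.04 with shGFP (2.36e-13). The muscle type Pfkm rose in 3D with shGFP (0.25 ± 0.04, 1.75e-05) and gave 0.08 with shAnkrd35 (0.0759), and after removal of the GC and length trend it was higher with both (0.40 and 0.34). Pfkl made up 52.1% ± 1.5 of the 3 subunits per length in 3D shAnkrd35 against 48.0% ± 0.8 in 3D shGFP, while 2D shAnkrd35 had 58.3% ± 0.4 against 55.5% ± 0.5 in 2D shGFP (SD, n = 4). These shares did not overlap between the hairpins in either growth type.

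The brain-type aldolase Aldoc went against Aldoa in 3D, falling with the hairpin by 0.39 ± 0.07 on the log2 scale (limma adjusted p = 0.000454), and was a small part of the pair, since Aldoa made up 96.1% to 98.0% of their RNA per length in the group means. The beta-enolase Eno3 rose with the hairpin by 0.26 in 3D and 0.53 in 2D and was lower in 3D than in 2D, by 0.88 with shAnkrd35 and by 0.61 with shGFP. After removal of the GC and length trend its 2D hairpin value was 0.26 and its growth values were -0.56 with shAnkrd35 and -0.53 with shGFP, all still called. Pklr, the liver and red cell pyruvate kinase, was rare, and its hairpin fold changes were larger than those of any of the 10. It had 14.5 ± 0.84 CPM in 3D shAnkrd35 against 5.59 ± 0.56 CPM in 3D shGFP, while 2D shAnkrd35 had 6.73 ± 0.55 CPM against 1.39 ± 0.16 CPM in 2D shGFP (SD, n = 4). Its log2 fold change with the hairpin was 1.37 ± 0.10 in 3D (adjusted p = 4.39e-08) and 2.21 ± 0.10 in 2D (7.82e-11).

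**Figure D4:**
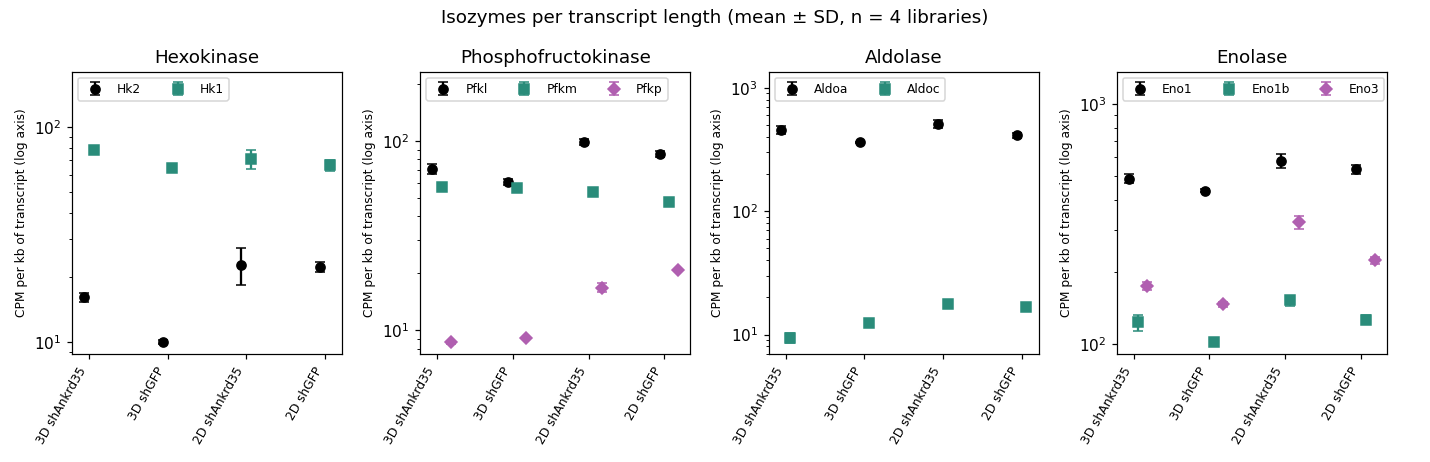
Mean level ± SD (n = 4 libraries) per kb of transcript, on a log axis, of the isozymes of hexokinase, phosphofructokinase, aldolase and enolase in the 4 groups. Hk1 lies above Hk2 in every group, Pfkl lies above Pfkp, Aldoa lies above Aldoc, and Eno1 lies above Eno3 and Eno1b.

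Other steps of glycolysis, taken from a list of 25 further enzymes, isozymes and carriers of which 17 were tested, were tested in the same fits. With the hairpin 6 rose and 1 fell in 3D (median log2 fold change 0.21) and 8 rose and 2 fell in 2D (0.18), where 29.7% and 57.9% of all genes were called in either direction. With the GC and length trend removed, 5 rose and 1 fell in 3D (0.16) and 4 rose and 1 fell in 2D (0.02). Of all genes, 16.8% then rose and 17.7% fell in 3D, and 25.8% rose and 30% fell in 2D. Gapdh, which makes 1,3-bisphosphoglycerate, rose by 0.26 ± 0.05 in 3D (SE, limma adjusted p = 0.0011) and by 0.43 ± 0.05 in 2D (3.86e-06), the second becoming 0.14 (0.00472) after that removal. Pgam1, the phosphoglycerate mutase between Pgk1 and Eno1, rose by 0.37 ± 0.07 in 3D (0.000818) and 0.71 ± 0.07 in 2D (4.41e-07), and by 0.37 and 0.49 after removal of the trend. The monocarboxylate carrier Slc16a1, which exports lactate, fell by 0.39 ± 0.05 in 2D (3.17e-06) and gave -0.07 in 3D (0.315), but its 2D value was -0.12 after the removal (0.0737). In 3D against 2D, 8 fell and 3 rose with shAnkrd35 (-0.25) and 7 fell and 3 rose with shGFP (-0.14), where 70.4% and 67.2% of all genes were called. After the removal 6 fell and 7 rose with shAnkrd35 (0.02) and 6 fell and 5 rose with shGFP (0.002). Of all genes, 28.3% then fell and 39.2% rose with shAnkrd35, and 30.2% fell and 37.6% rose with shGFP.

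Among 18 tested regulators of glycolytic flux, 6 rose and 1 fell with the hairpin in 3D, and 5 rose and 2 fell in 2D, where 29.7% and 57.9% of all genes were called. After removal of the GC and length trend 6 rose and 1 fell in 3D, and 5 rose and 5 fell in 2D. The shares of all genes were then 16.8% higher and 17.7% lower in 3D, and 25.8% and 30% in 2D. Galm, which converts the anomers of sugars, rose by 0.41 in 3D and 0.84 in 2D, and Pdhb, a subunit of pyruvate dehydrogenase, fell by 0.47 and 0.35. With growth in 3D, Pfkfb2, whose product sets the level of the phosphofructokinase activator fructose 2,6-bisphosphate, rose by 1.26 with shAnkrd35 and 1.17 with shGFP, and Pfkfb3, another enzyme of that family, fell by 0.66 and 0.87. Mpc2, a subunit of the mitochondrial pyruvate carrier, rose by 0.75 and 0.66. In the list 5 rose and 4 fell in 3D with shAnkrd35, and 10 rose and 5 fell with shGFP, where 70.4% and 67.2% of all genes were called. After the removal 10 rose and 4 fell with shAnkrd35, and 10 rose and 6 fell with shGFP. The shares of all genes were then 39.2% higher and 28.3% lower with shAnkrd35, and 37.6% and 30.2% with shGFP.

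The branches that leave glycolysis were tested next. Of 10 tested pentose phosphate genes 0 rose and 3 fell with the hairpin in 3D (median -0.08), led by Rpia at -0.42, and 3 rose and 2 fell in 2D (0.05), where 29.7% and 57.9% of all genes were called. Once the GC and length trend was removed, 1 rose and 4 fell in 3D (-0.07), and 1 rose and 2 fell in 2D, where the median turned to -0.03. The shares of all genes were then 16.8% higher and 17.7% lower in 3D, and 25.8% and 30% in 2D. Of 12 gluconeogenesis and glycogen genes 4 rose and 1 fell with the hairpin in 3D, and 5 rose and 3 fell in 2D. These stood beside 29.7% and 57.9% of all genes called. After the removal 5 rose and 1 fell in 3D, and 5 rose and 3 fell in 2D, beside the corrected shares of all genes given above. The glycogen phosphorylase Pygb (0.54 in 3D and 0.57 in 2D) and the glycogen synthase Gys1 (0.39 and 0.44) were among those that rose. Of 7 hexosamine and glycerol phosphate genes, Uap1 fell (-0.53 in 3D and -0.28 in 2D) and Gpd1, the cytosolic glycerol 3-phosphate dehydrogenase, was higher in 3D than in 2D, by 1.40 with shAnkrd35 and 2.12 with shGFP. In 3D with the hairpin 2 of the 7 rose and 2 fell, and in 2D 4 rose and 2 fell, where 29.7% and 57.9% of all genes were called. After the removal 2 rose and 2 fell in 3D, and 5 rose and 2 fell in 2D, beside the same corrected shares of all genes.

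Transcription factors and sensors known to act on glycolytic genes were set beside them. Of 15 tested, 2 rose and 7 fell with the hairpin in 3D, and 2 rose and 6 fell in 2D, where 29.7% and 57.9% of all genes were called, so the 2D share was near that of all genes. After removal of the GC and length trend 2 rose and 6 fell in 3D, and 3 rose and 5 fell in 2D. The shares of all genes were then 16.8% higher and 17.7% lower in 3D, and 25.8% and 30% in 2D, so the 2D share was again near that of all genes. Epas1, which encodes HIF-2 alpha, fell by 1.12 in 3D and 1.96 in 2D, and Vhl, which marks hypoxia-inducible factors for breakdown, fell by 0.53 and 0.70. Hif1a fell by 0.47 in 2D as deposited, and that value was -0.09 after removal of the trend. In 3D against 2D, 4 of the 15 rose and 7 fell with shAnkrd35, and 3 rose and 9 fell with shGFP, where 70.4% and 67.2% of all genes were called. Myc fell by 1.14 with shAnkrd35 and 1.05 with shGFP, and Txnip, a glucose-responsive inhibitor of glucose uptake, fell by 0.89 and 0.71. Hif1a rose by 0.99 and 0.42, values that were 0.32 and 0.05 after removal of the trend. Epas1 rose by 0.95 with shAnkrd35 (1.1 after the removal). Of 14 targets of hypoxia-inducible factors outside glycolysis, 4 rose and 4 fell with the hairpin in 3D and 6 rose and 7 fell in 2D, beside the same shares of all genes (29.7% and 57.9%). After the removal 7 rose and 4 fell in 3D, and 6 rose and 7 fell in 2D, beside the same corrected shares of all genes. In 3D against 2D 5 rose and 7 fell with shAnkrd35 and 4 rose and 7 fell with shGFP, where 70.4% and 67.2% of all genes were called. Their median hairpin effect was 0.15 in 3D and -0.03 in 2D, beside 0.22 in each for the 10 glycolysis genes. With the trend removed these medians were 0.17 in 3D and -0.125 in 2D, beside 0.22 and 0.05 for the 10 genes.

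Likeness of pattern was measured as the root mean square difference of log2 values, each gene centred on its own mean, over the 16 libraries. The closest pairs among the 10 were Pgk1 with Eno1 (0.06) and Gpi1 with Pfkl (0.07), and Tpi1 was nearest to Gpi1 (0.08). Slc2a1 (0.30 from Pgk1) and Hk2 (0.28 from Pfkl) had the widest gaps to their nearest members. The number of genes nearer than the nearest member was 3807 for Slc2a1, 364 for Pkm, 351 for Hk2, 342 for Aldoa and 211 for Ldha, and from 4 to 35 for the other 5 genes. For Gpi1, 4 genes were nearer than Pfkl. Outside the list the nearest genes were Dgcr2 for Slc2a1 (0.08), Mfhas1 for Hk2 (0.10), Eif3d for Gpi1 (0.04), Sae1 for Pfkl (0.03) and Slc25a5 for Pkm (0.06).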

How the data were processed

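Poly(A)-selected RNA of 16 LKR10 libraries was sequenced. The submitters' processing notes name the mm10 genome, STAR 2.5.1b, Trimmomatic 0.38 and edgeR. How reads were counted, whether by strand, and how low genes were dropped is not stated there, and without use of strand the reads of an antisense neighbour could be added to a gene. The authors deposited log2 values of 12321 genes in 16 columns, with 0 columns of other samples. From the values themselves they are log2 CPM scaled by effective library sizes, the added prior averaging 2 reads, since 100% of the values in every library came out as whole reads within 0.01 reads once the prior was removed. CPM levels and depths printed here were computed from those reads without the prior, and fold changes include it.

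Contrasts were tested with limma 3.58.1 (R 4.3.3, statmod 1.5.0), using trended and robust moderation of variances, on a model of the 4 group means over all 16 libraries. Testing took in the 12320 genes that reached 1 CPM with the prior in 4 or more libraries, with Benjamini-Hochberg adjustment over all of them in each contrast. Rose, fell, higher and lower refer to an adjusted p under 0.05. Every contrast was also fitted after each library's trend with the GC content and length of the longest GENCODE M21 transcript had been removed, which was possible for 99.2% of genes. The fit was tested on simulated data. The planned edgeR count test was not run, although whole reads could be recovered from the deposited log2 values. Limma with voom weights on those whole reads, chosen after seeing the data, stood in for it. The 10 genes and the gene lists were chosen with earlier results of these data known. All 10 genes are named, as are the isozymes of listed enzymes, and from other lists at most 3 called genes each way with at least 5 CPM on average, those with the largest fold changes. Upstream sequences are from RefSeq (GRCm38.p6), which had entries for all 10 genes.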

Additional observations from a re-analysis of the deposited data

Results flagged for a closer look

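Of 40 groups of 4 libraries (10 genes in 4 groups), 4 held a library far from the other 3, with a gap to its nearest neighbour past Dixon's 95% critical value for the group's range on the log2 scale. Chance gives about 1 in 20 groups, but the 10 genes share the same 16 libraries, so the groups are not independent of each other. In 2D shAnkrd35, replicate 4 was lowest for Pfkl (gap 0.859 of the range), Pgk1 (0.958) and Pkm (0.835). In 3D shAnkrd35, replicate 4 was highest for Slc2a1 (0.859).

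For 3 of the 10 genes the hairpin effect differed between growth types by a test of the difference, as it did for 35.8% of all genes tested. The limma adjusted p was 0.000941 for Hk2, 0.0157 for Tpi1 and 0.00872 for Ldha. The difference, 3D minus 2D on the log2 scale, was 0.669 for Hk2, whose 4 shAnkrd35 libraries were all above the shGFP libraries in 3D and overlapped them in 2D. It was -0.231 for Tpi1 and -0.257 for Ldha, which were higher in all 4 shAnkrd35 libraries in both growth types. The differences of Tpi1 and Ldha did not pass after removal of the GC and length trend.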

How the results depend on the processing

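Over 28 alternatives, 1326 of 1390 fold changes of the 10 genes stayed on their side of the threshold with no change of sign in a called value, 35 lost the call, 15 gained it and 14 changed sign with a call before or after, or both. Uncalled values could change sign within the first count, as Pkm did in the 3D hairpin contrast, where the lowest value was -0.05. Slc2a1 in both hairpin contrasts, Hk2 in all but the 2D hairpin contrast, and Gpi1 and Tpi1 in both hairpin and both growth contrasts kept their calls in every alternative run. So did Ldha in both hairpin contrasts, Pfkl in the 3D hairpin and both growth contrasts, Aldoa and Pgk1 in the 3D hairpin contrast, and Pkm for growth with shGFP. Removal of the GC and length trend, alone or with the replicate block, gave 3 higher genes in the 2D hairpin contrast (6 before), 3 higher and 4 lower for growth with shAnkrd35 (1 and 8 before), and 4 higher and 0 lower for the difference of hairpin effects (1 and 2 before). Quantile normalization gave 2 higher and 5 lower for growth with shAnkrd35, 5 lower for growth with shGFP (8 before) and 2 higher for the difference of effects. Centring on the median gene gave 0 higher for growth with shAnkrd35 and 1 for growth with shGFP (2 before). It moved the median of all genes with shAnkrd35 growth to -0.11, against -0.02 before. Sign changes were seen for growth with shAnkrd35 in Aldoa (0.044 with quantile normalization, 0.195 after GC and length correction, also with the block), Pgk1 (0.013 and 0.087), Eno1 (0.072 and 0.069) and Ldha (0.27 and 0.204), and in the difference of effects in Tpi1 (0.008 after the correction). The cause was not tested. With 1 library left out at a time, the counts of the 10 genes ranged from 7 to 8 higher in the 3D hairpin contrast, 6 to 8 higher in 2D and 6 to 8 lower for growth with shAnkrd35. Other such counts did not change. The replicate block alone changed no call of the 10 genes, and gave 3448 genes called in the 3D hairpin contrast and 6967 in 2D. Same-numbered libraries did not deviate together, with correlations of their deviations from the group means of -0.48 to 0.21, so the numbers were not read as pairs. Over all alternatives, genes called ranged from 2983 to 5088 in the 3D hairpin contrast and from 5901 to 8012 in 2D. The edgeR test was not run.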
